A study of Danio rerio with 40 samples.

Results

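Immediate early genes respond to a signal quickly and need no newly made protein to do so, and many of their products are transcription factors or inhibitors that end the response. FOS and JUNB encode subunits of AP-1, a family of paired transcription factors that bind the same short DNA element, and egr1 encodes a zinc finger factor that many growth and stress signals induce. In dissociated tissue these genes are also known to respond to enzyme digestion and warming, as do the genes of the heat shock response, whose products keep damaged proteins folded. The cells described here are epicardial cells of the adult zebrafish heart, split by how much of their RNA came from FOS, egr1 and JUNB. The members were chosen by measured values, the levels of those 3 genes. The score of a cell was the summed expected reads of FOS (ENSDARG00000031683), egr1 (ENSDARG00000037421) and JUNB (ENSDARG00000074378) as a percentage of all its reads. Expected reads are estimated numbers of reads per gene that need not be whole. Of 40 sequenced cells, 25 had at least 2000 genes at 5 or more reads, and cells 40 and 11 were left out of these by rule. The remaining 23 were divided at their median score into 11 high-score cells and 12 low-score cells, the median cell among the latter.

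All 40 cells belong to 1 group: EK-strain adults, aged 6 months, that carried the reporter tcf21:nucEGFP, a nuclear green fluorescent protein driven by regulatory sequence of the epicardial gene tcf21. Ventricles were digested with Liberase DH at 37 °C, green cells that excluded the dead-cell dye propidium iodide were sorted, and single cells were processed on the Fluidigm C1, a microfluidic capture device. No animal, day, batch or treatment is named for any cell, so the cells count as 1 sample. The sides were made from the same data that are compared below, so every difference is a description of these 23 libraries and no test was run.

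The score ran from 1.48% of reads in cell 25 to 12.5% in cell 8. High-score cells had a median of 5.38%, from 4.31%, and low-score cells a median of 2.98%, up to 4.27%. The division fell in a dense stretch of the range, with cell 35 just inside the high side at 4.31% and cell 39, the median cell, just outside it at 4.27%. FOS made up a median of 70.13% of the score in high-score cells and 72.6% in low-score cells, and the Spearman correlation of FOS with the score was 0.83. Cells reached a high score in different ways. egr1 made up 42.8% of the score in cell 18, a cell with an egr1 level of 19710 reads per 1000000 (CPM), and JUNB made up 37.2% in cell 3, with a JUNB level of 20002 CPM. In cell 8 FOS alone held 87484 CPM. At the other end, cell 37 had 33708 CPM of FOS but 16.9 CPM of egr1, and fell on the low side. Over the 23 cells the Spearman correlation was 0.24 between FOS and egr1, 0.42 between FOS and JUNB and 0.31 between egr1 and JUNB, values that share each cell's library and closed total.

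**Figure D1:**
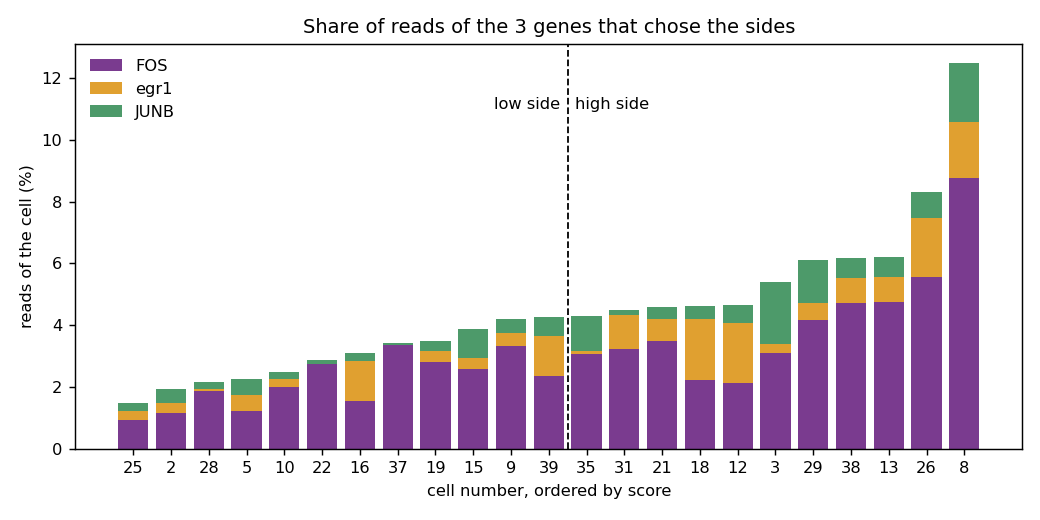
Bars give the percentage of all reads of each of the 23 cells that came from FOS, egr1 and JUNB, stacked, with cells in order of their sum and the dashed line at the division between sides. The sum climbs gradually from 1.48% in cell 25 to 6.20% in cell 13, and cells 26 and 8 stand above that at 8.30% and 12.5%.

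The sides also differed in how much the libraries held. Total reads had a median of 2946732 in high-score cells (1364664 to 4347066) and 3256405 in low-score cells (2339994 to 4376055). Genes at 5 or more reads numbered 2004 to 2879 in high-score cells, with a median of 2249, and 2164 to 4119 in low-score cells, with a median of 2462.5. After each cell was thinned at random to the lowest total, the medians were 1923 and 2110 genes. A high-score cell had more genes than a low-score cell in 37 of the 132 possible pairs. The share of the 13 genes with a mitochondrial symbol (mt-) had a median of 1.48% in high-score cells and 1.76% in low-score cells. The ranges overlapped widely, and mitochondrial genes without such a symbol are not in this share.

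For each gene the level of a cell was log2(CPM + 1), and the difference was the mean over high-score cells minus the mean over low-score cells. A gene was past the fold at a difference of 1 or more in either direction, which is a doubling on that scale and understates changes of genes at low levels. Of 3100 genes with 5 or more reads in at least 6 of the 23 cells, the 3 score genes left out, 340 (11%) were past the fold with higher levels in high-score cells and 772 (24.9%) with lower levels, together 1112 (35.9%). The median difference was -0.07. The excess of lower genes was largest among sparsely detected ones: of 1576 genes found in 6 to 11 cells, 134 were higher and 448 lower. Of 232 genes found in every one of the 23 cells, 25 were higher and 28 lower. Cells 5, 9 and 15, all low-score cells, had over 3000 genes at 5 or more reads. Without them 407 of 2581 genes were higher and 564 lower, with a median difference of 0.08. With levels corrected for the number of genes detected per cell, 379 genes were higher and 521 lower. Without the high-score cells 12 and 29, a setting used below, 348 of 2919 genes were higher and 672 lower, with a median of -0.12. These shares are the background against which each group below is read.

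Genes of the AP-1 family other than FOS and JUNB took a larger share of reads in high-score cells. Their summed share of reads had a median of 2.51% there (1.16 to 4.35) and 1.05% in low-score cells (0.658 to 2.15), and it was greater in the high-score cell in 125 of 132 pairs. Of 8 members that could be compared, 3 (JUN, FOSB and JDP2) were past the fold upwards and 1 (maff) downwards, beside 11% and 24.9% of all genes, and the median difference was 0.77. JUN (ENSDARG00000043531), the main partner of FOS in AP-1, had levels of 1088 to 25086 CPM in high-score cells with a median of 7592, and of 23.8 to 9267 CPM in low-score cells with a median of 2159. The lowest low-score cells lay far below any high-score cell, the upper ranges overlapped, and the difference was 2.58. FOSB (ENSDARG00000055751), another FOS-type subunit, ranged from 1682 to 16037 CPM with a median of 5494 in high-score cells, against 668 to 4029 CPM with a median of 1944 in low-score cells. Its difference was 1.37, and the high-score cell had more FOSB in 111 of 132 pairs.

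JDP2 (ENSDARG00000020133), a family member that pairs with JUN and can repress its targets, had a median of 6570 CPM in high-score cells (2426 to 16531) and 2783 CPM in low-score cells (347.4 to 6795). The difference of 1.21 became 0.95 without cell 39. Other AP-1 genes did not divide the cells. FOSL2 had medians of 1903 and 1213 CPM in high-score and low-score cells with a difference of 0.04, and FOSL1 medians of 731 and 749 CPM with a difference of -0.39. JUND and ATF3 had differences of 0.68 and 0.86, short of the fold. maff, which encodes a small Maf protein without an activation domain, was lower at -1.25, but this rested on single cells: it was -0.89, -0.79, -0.86, -0.75 and -0.82 without cells 3, 18, 19, 21 and 35 in turn.

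Among the other immediate early transcription factors, 6 of 21 were past the fold upwards and 5 downwards, beside 11% and 24.9% of all genes. The median difference was 0.13, and the share past the fold downwards was near that of all genes. Corrected for genes detected, 9 were past it upwards and 3 downwards, with a median of 0.44. IER5, which encodes a nuclear protein that aids heat shock factor activity, had a median of 2388 CPM in high-score cells (201 to 10948) and 694 CPM in low-score cells (1.12 to 2254). None of the high-score cells was below 201 CPM, and the difference was 2.95. KLF4, a zinc finger factor gene, had a difference of 2.57, and its levels were at 50 CPM or more in 6 of 11 high-score and 3 of 12 low-score cells. klf2a, a related factor known for its response to fluid flow in endothelium, was at 50 CPM or more in 6 and 5 cells and had a difference of 2.20. KLF6 went the other way. It ranged from 0 to 1397 CPM with a median of 75.2 in high-score cells and from 1.71 to 1212 CPM with a median of 531 in low-score cells, a difference of -3.33. The low-score cell had more KLF6 in 103 of 132 pairs. CEBPB, which encodes a factor of inflammatory and acute phase genes, had a difference of -1.44, which was -0.82 without cell 8. CSRNP1, MYC and NR4A1 showed differences of 0.46, -0.48 and -0.35.

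Among genes that limit the response, 3 of 23 were past the fold upwards and 5 downwards, shares near the 11% and 24.9% of all genes. The median difference was -0.27, and 0.026 when corrected for genes detected. Both copies of GADD45B, which encodes a stress sensor that acts on MAP kinase signalling, were higher. The copy ENSDARG00000027744 had levels of 446 to 19359 CPM and a median of 4297 in high-score cells, and 76.9 to 9950 CPM with a median of 615 in low-score cells. Its difference was 1.89, and that of ENSDARG00000013576 was 2.79. The pair of genes for the NF-kB inhibitor had differences of opposite sign: nfkbiab had a difference of 3.33, with 10 of 11 high-score and 7 of 12 low-score cells at 50 CPM or more, and nfkbiaa one of -1.95, with 4 and 7 cells. mcl1b, one of the copies of an anti-apoptotic gene, had a median of 40.4 CPM in high-score cells (0.733 to 902) and 393 CPM in low-score cells (12.7 to 1854), a difference of -3.07, while its copy mcl1a differed by 0.44. TXNIP, which encodes an inhibitor of thioredoxin and of glucose uptake, had a difference of -2.78 and was at 50 CPM or more in 3 of 11 high-score and 8 of 12 low-score cells. The abundant growth inhibitor gene BTG2 had medians of 4746 and 4784 CPM and a difference of -0.27. Reads of such copies were divided by the authors' estimate, so a single copy's value is less certain than the pair's.

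The score was set beside the rest of the immediate early response. Summed over all 83 measured immediate early genes other than the 3 in the score, the median share was 8.03% in high-score cells (4.76 to 10.5) and 5.18% in low-score cells (3.14 to 7.43), and the high-score cell had the larger share in 112 of 132 pairs. When the cells were divided at the median of this share in place of the score, 17 of 23 stayed on the same side. The summed share of the feedback genes alone had a median of 2.79% on both sides. That of the other immediate early transcription factors had medians of 1.88% in high-score cells and 1.51% in low-score cells. It was larger in the high-score cell in 90 of 132 pairs. Spearman correlations of these shares with the score were 0.77 for the AP-1 genes, 0.13 for those transcription factors and 0.13 for the feedback genes.

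**Figure D2:**
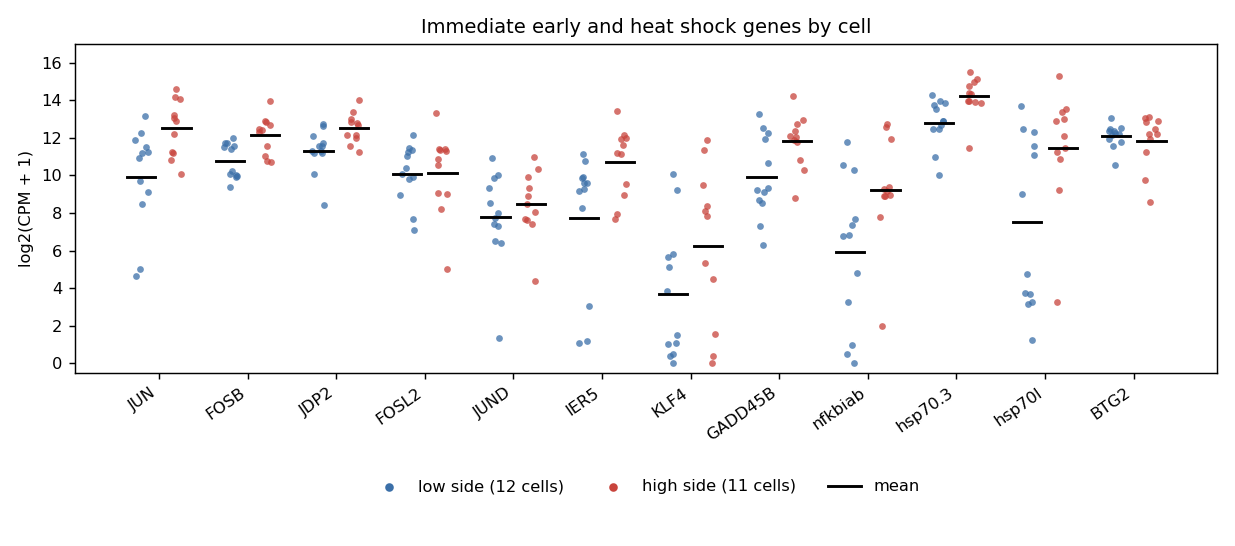
Each point is the level of 1 cell as log2(CPM + 1), with 12 low-score cells in blue, 11 high-score cells in red and the side mean as a black bar. JUN, FOSB, JDP2, IER5, GADD45B (ENSDARG00000027744) and hsp70.3 are shifted upwards in high-score cells with overlap in each, while FOSL2 and BTG2 have side means that differ by 0.04 and -0.27.

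Heat shock genes went both ways. Of 19 members compared, 4 were past the fold upwards and 6 downwards, beside 11% and 24.9% of all genes, and the median difference was 0.43. The summed share of reads of the list had a median of 7.90% in high-score cells and 6.49% in low-score cells. This share was larger in the high-score cell in 99 of 132 pairs, and its Spearman correlation with the score was 0.45. hsp70.3 (ENSDARG00000021924), a strongly inducible chaperone gene, had the highest Spearman correlation with the score of the genes with a symbol found in at least 12 cells, at 0.74 over 23 cells. It ranged from 2803 to 47238 CPM with a median of 20611 in high-score cells and from 1024 to 19811 CPM with a median of 7720 in low-score cells, and the high-score cell had more in 116 of 132 pairs. The difference was 1.40. hsp70l, another inducible member of the family, had a median of 4383 CPM in high-score cells (8.54 to 40435) and 269 CPM in low-score cells (1.40 to 13353), a difference of 3.98, the largest in the list. It was at 50 CPM or more in 10 of 11 and 6 of 12 cells. hsp70.1, HSPA2 and the co-chaperone gene dnajb1b had differences of 0.85, 0.57 and 0.85, short of the fold. The other members past the fold upwards were hsf1, which encodes the main heat shock transcription factor, at 2.44, and the HSP90 gene hsp90aa1.1 at 1.25, which was 0.98 without cell 8 and also without cell 12. hsf1 was found at 5 or more reads in only 6 of the 23 cells, the fewest that the filter allowed. Levels of hsp90aa1.1 were low, at 0 to 57.6 CPM in high-score and 0 to 39.05 CPM in low-score cells. HSP90AA1 (ENSDARG00000024746), which is outside the list and was picked after its value was seen, was found in all 23 cells and had a difference of 1.88. The near-identical hsp70 copies share reads, and their values are uncertain one by one.

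The 6 members past the fold downwards were HSPA8, HSP90AB1, HSPB8, HSPH1, SERPINH1 and FKBP4. HSPA8 (ENSDARG00000068992), the constitutive member of the HSP70 family, had medians of 2793 and 3977 CPM and a difference of -1.99, which was -1.20 without cell 21. HSP90AB1, the constitutive cytosolic HSP90 gene, had a median of 1638 CPM in high-score cells (1.03 to 6733) and 4609 CPM in low-score cells (422 to 6673). Its difference was -2.62. SERPINH1 (ENSDARG00000019949), the collagen chaperone of the endoplasmic reticulum, had a difference of -3.33 and reached 50 CPM in 2 high-score and 6 low-score cells. Cells 12 and 29, which are high-score cells with few ribosomal protein reads (below), bore on the list as a whole: without them its median difference was -0.66, with 3 members past the fold upwards and 9 downwards.

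Transcripts of the translation machinery took a smaller share of reads in high-score cells. Ribosomal protein genes, which encode the protein parts of the ribosome, had a median share of 4.25% in high-score cells (0.715 to 8.12) and 7.71% in low-score cells (1.95 to 10.0). The high-score cell had the larger share in 30 of 132 pairs. Of 70 members compared, 55 were past the fold downwards and 0 upwards, beside 24.9% and 11% of all genes, and 68 had a difference below 0. The median difference was -1.79. RPS7 (ENSDARG00000042566), a protein of the small subunit, ranged from 1.03 to 927 CPM with a median of 405 in high-score cells and from 486 to 1641 CPM with a median of 1004 in low-score cells. The sides overlapped little: the low-score cell had more in 122 of 132 pairs, and the difference was -2.52. RPL28, of the large subunit, had medians of 55.4 and 401 CPM and a difference of -3.37, and RPL15 medians of 259.7 and 952 CPM and a difference of -3.05. The members with a difference above 0 were RPL18 at 0.24 and RPS14 at 0.12.

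The size of this difference depended on 2 cells. Cells 29 and 12 had the lowest ribosomal protein shares of the 23, at 0.715% and 1.06%. The setting without them was added after these values were seen. Both are high-score cells, so leaving them out narrows a difference of this direction by construction. Without both, the median difference of the list was -0.89, with 32 of 70 members past the fold downwards and 1 upwards. Of all 2919 genes compared in that setting, 672 were past it downwards and 348 upwards. The median share of the other high-score cells was 5.04%. The Spearman correlation of the share with the score over the 23 cells was -0.38, and -0.25 without both. With a correction for genes detected the median difference was -1.18 and 41 members were past the fold downwards. Among low-score cells, the lowest share was 1.95%, in cell 28. pabpc1a, which encodes a poly(A) binding protein that promotes translation, had a median of 130 CPM in high-score cells (1.47 to 2327) and 1103 CPM in low-score cells (174 to 4366). Its difference was -3.52. Of 17 translation factor genes compared, 9 were past the fold downwards and 0 upwards, beside 24.9% and 11% of all genes. The median difference was -1.26. Corrected for genes detected the median was -0.55 with 6 lower, and without cells 12 and 29 it was -0.77 with 6 lower and 1 higher. The summed share of the listed translation factors differed less, with medians of 1.54% in high-score cells and 1.78% in low-score cells. This share was larger in the high-score cell in 50 of 132 pairs, and its Spearman correlation with the score was -0.23. The elongation factor gene eef1a1l1 had a difference of -0.80. The list did not hold every translation factor gene. EIF4G1, EIF1 and eif4e1c, which are outside it, differed by 2.41, 1.59 and 1.35. EIF1 and eif4e1c were picked after their values were seen, and translation factor genes outside the list were not counted in either direction.

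**Figure D3:**
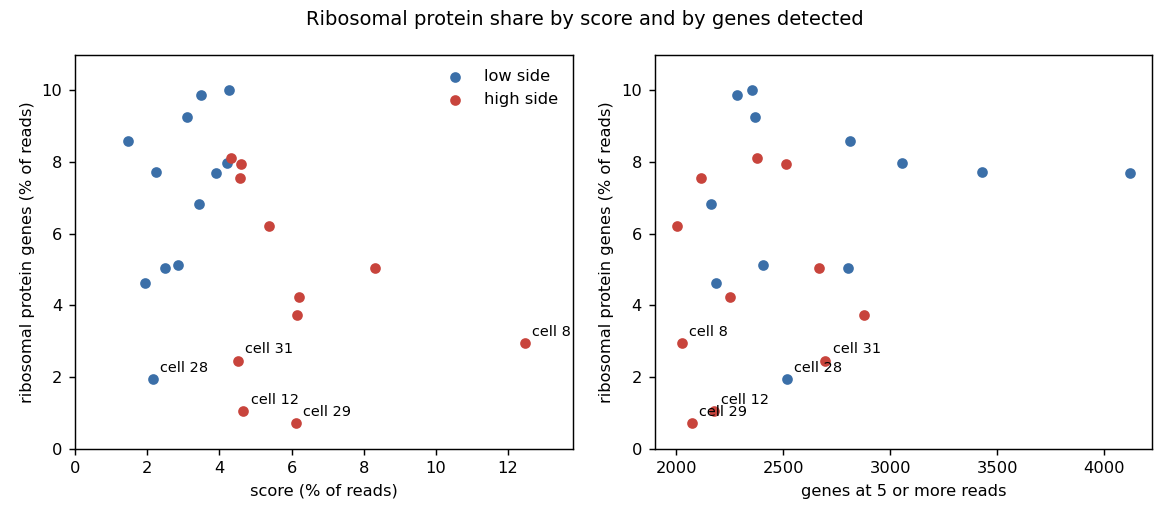
Points are the 23 cells, with the percentage of reads from ribosomal protein genes against the score (left) and against the number of genes at 5 or more reads (right), low-score cells in blue and high-score cells in red. Cells 12 and 29 lie lowest, at 1.06% and 0.715%, and the high-score cells 35, 21 and 18 lie among the low-score cells, between 7.55% and 8.12%.

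The epicardial markers past the fold were lower in high-score cells, and the sort marker itself was not among them. TCF21 (ENSDARG00000036869), the gene behind the sort, was found at 5 or more reads in all 23 cells, at 37.4 to 1584 CPM with a median of 450.2 in high-score cells and 44.9 to 1061 CPM with a median of 281 in low-score cells. Its difference was 0.36. TBX18, another epicardial transcription factor gene, differed by 0.74. Of 11 epicardial markers compared, 0 were past the fold upwards and 6 downwards, beside 11% and 24.9% of all genes. The median difference was -1.55. The 6 were GATA5 and 5 keratin genes, which encode the intermediate filaments of epithelial cells. krt15 (ENSDARG00000036840) had a median of 6.60 CPM in high-score cells (0.388 to 2897) and 1149.8 CPM in low-score cells (0.941 to 12570). At 50 CPM or more it was found in 4 of 11 high-score and 9 of 12 low-score cells, and the difference was -3.90. krt8 had nearly the same median on both sides, 2618 and 2534 CPM, and its difference of -1.57 rested on single cells: it was -0.95 without cell 12 and -0.81 without cell 29. krt94 differed by -1.55, and by -0.88, -0.97 and -0.89 without cells 12, 31 and 38 in turn. Without cell 37 it was -2.33. The list had a median difference of 0.19 after the correction for genes detected and -0.10 without cells 12 and 29.

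The listed collagen and basement membrane genes past the fold were mostly lower. Of 18 genes of collagens and fibrous matrix, 10 were past the fold downwards and 1 (col6a1) upwards, beside 24.9% and 11% of all genes. The median difference was -1.14. The list did not hold every collagen gene. col16a1, outside it and picked after its value was seen, was found in 9 cells and differed by 1.52. Collagen genes outside the list were not counted in either direction. col1a1a (ENSDARG00000012405), a chain of type I collagen, had a median of 133 CPM in high-score cells (1.59 to 5074) and 1710.5 CPM in low-score cells (13.34 to 3948), and the low-score cell had more in 108 of 132 pairs. Its difference was -3.08. COL1A2, which encodes the other chain of the same fibre, had medians of 2115 and 2356 CPM and a difference of -0.08. lamc1, a laminin chain of basement membranes, was at 50 CPM or more in 5 of 11 high-score and 9 of 12 low-score cells and differed by -3.47. The fibronectin gene FN1 (ENSDARG00000006526) differed by -1.95, and by -1.22 without cell 29. The proteoglycan gene DCN and COL6A2 had differences of -0.38 and 0.81. Without cells 12 and 29, 6 of the 18 were past the fold downwards and 2 upwards, with a median of -0.58. The summed share of reads of the list had medians of 1.42% in high-score cells and 2.74% in low-score cells. This share was larger in the high-score cell in 53 of 132 pairs. Without cells 12 and 29 the median of the high-score cells was 2.73%, close to that of the low-score cells. That median was the value of cell 18, and without cell 18 alone the high-score median was 1.37%.

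The listed matrix turnover genes past the fold were mostly lower. Of 13 proteases and inhibitors, 7 were past the fold downwards and 1 upwards, beside 24.9% and 11% of all genes. The median difference was -1.29. It was -0.41 without cells 12 and 29 and -0.76 when corrected for genes detected. The gelatinase gene MMP2 had a median of 79.8 CPM in high-score cells (0 to 5005) and 1514 CPM in low-score cells (0.417 to 7277), a difference of -2.94. It was at 50 CPM or more in 6 of 11 and 9 of 12 cells, and the ranges overlapped. The member past the fold upwards was ctsla, which encodes a lysosomal cysteine protease of the cathepsin L kind. It had a median of 339 CPM in high-score cells (2.93 to 3908) and 121 CPM in low-score cells (0 to 2652), with 10 of 11 and 6 of 12 cells at 50 CPM or more and a difference of 3.47. Among 5 genes of hyaluronan and proteoglycans, 1 was past the fold upwards and 1 downwards, beside 11% and 24.9% of all genes. The higher gene, hapln1a, which encodes a protein that links hyaluronan to proteoglycans, differed by 2.77. The lower, the proteoglycan gene vcanb, differed by -1.18, and sdc4 and HAS2 by -0.49 and 0.54.

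Of 10 measured genes of caveolae, flask-shaped pits of the cell membrane, 3 could be compared. Past the fold downwards were 2 of these, beside 24.9% of all genes. CAVIN2 (ENSDARG00000071196), which encodes a coat protein of caveolae, had a median of 0.818 CPM in high-score cells (0 to 619) and 339.7 CPM in low-score cells (0 to 3809). It was at 50 CPM or more in 2 of 11 and 8 of 12 cells, and the difference was -4.39. EHD2, an ATPase gene of the caveolar neck, was at 50 CPM or more in 2 and 5 cells and differed by -2.10. The third gene, cavin4b, differed by 0.16. The summed share of the 10 measured caveola genes had a median of 0.00134% of reads in high-score cells and 0.0673% in low-score cells, and was larger in the high-score cell in 24 of 132 pairs. Among genes of the cytoskeleton, 8 of 16 were past the fold downwards and 3 upwards, beside 24.9% and 11% of all genes. flna, which encodes the actin crosslinker filamin A, had medians of 110.3 and 281 CPM and a difference of -2.49, while actb1 differed by 0.44. s100a10b, a partner of annexin A2, differed by -2.53 and the mesenchymal factor gene twist1a by -1.90.

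Outside the lists, the 12 genes of largest negative difference with a symbol, among those found in at least 12 cells, were CLIC4, PCF11, IFRD1, TMBIM6, NT5E, creg2, SKP1, krt18b, TCF12, TOB1, si:ch73-182o2.1 and F10, from -5.56 to -3.44. CLIC4 (ENSDARG00000022995), which encodes an intracellular chloride channel protein, had a median of 0.686 CPM in high-score cells (0 to 353) and 847 CPM in low-score cells (0 to 4158). It was at 50 CPM or more in 3 of 11 and 10 of 12 cells, and the low-score cell had more in 115 of 132 pairs. PCF11, which encodes a factor of transcript cleavage and termination, was at 50 CPM or more in 1 of 11 and 7 of 12 cells, with a difference of -4.51. NT5E, which encodes the ectoenzyme CD73 that makes adenosine, had medians of 18.4 and 1059 CPM and a difference of -3.72. TOB1, an antiproliferative gene of the same family as BTG2, differed by -3.52.

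The 12 of largest positive difference were crfb1, TMED1, NFIX, PCDH19, PLEKHJ1, si:ch73-52p7.1, EIF4G1, ANXA2, SUSD6, CD82, RAC1 and B4GALT5, from 3.23 to 2.38. TMED1, which encodes a cargo receptor of the early secretory pathway, had a median of 208 CPM in high-score cells (0.388 to 2333) and 29.4 CPM in low-score cells (0.229 to 141), and the high-score cell had more in 107 of 132 pairs. crfb1, a class II cytokine receptor gene, had medians of 11.7 and 0.377 CPM, both low. It was at 50 CPM or more in 3 of 11 and 1 of 12 cells. NFIX, a nuclear factor I transcription factor gene, was at 50 CPM or more in 7 of 11 and 3 of 12 cells. The annexin gene ANXA2 ranged from 192 to 4117 CPM in high-score cells and from 0 to 5686 CPM in low-score cells, with medians of 1439 and 909 CPM. Its difference was 2.40, and its correlation with the score was -0.03.

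**Figure D4:**
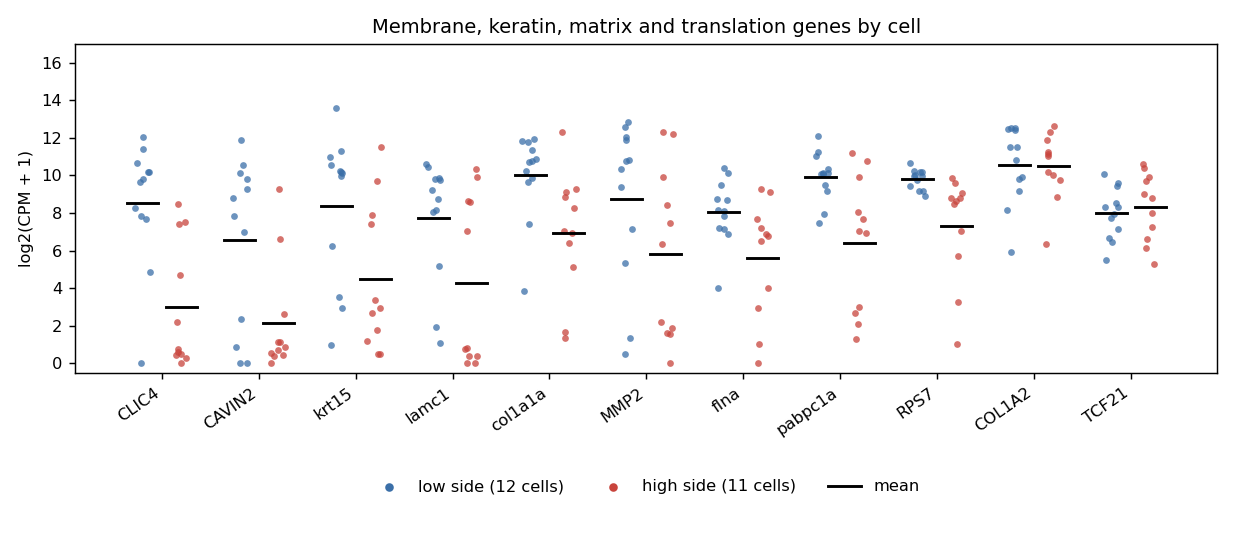
Each point is the level of 1 cell as log2(CPM + 1), with 12 low-score cells in blue, 11 high-score cells in red and the side mean as a black bar. CLIC4, CAVIN2, krt15 and lamc1 have more cells near 0 on the high side, while COL1A2 and TCF21 have side means that differ by -0.08 and 0.36.

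Ranked by the Spearman correlation of their level with the score over the 23 cells, the 10 highest genes were hsp70.3 (0.74), SCUBE1 (0.64), kcnn1b (0.64), lyrm2 (0.64), ezh1 (0.63), FOSB (0.63), LGALSL (0.60), EFL1 (0.59), JUN (0.59) and prr35 (0.58). SCUBE1, which encodes a secreted and surface EGF-repeat protein, had a median of 85.7 CPM in high-score cells (1.64 to 261) and 9.61 CPM in low-score cells (0.423 to 94.9) and differed by 2.15. Apart from hsp70.3, FOSB, JUN and SCUBE1, the medians of these genes lay at 4.197 to 32.97 CPM in high-score cells. The 10 lowest were si:ch73-182o2.1 (-0.69), RPS7 (-0.69), F10 (-0.68), RPL28 (-0.63), si:ch211-105c13.3 (-0.60), LRP1 (-0.59), adam10a (-0.58), krt18a.1 (-0.56), CLIC4 (-0.56) and IFRD1 (-0.55). LRP1, a large endocytic receptor gene, was at 50 CPM or more in 3 of 11 high-score and 9 of 12 low-score cells, and the difference of adam10a, a membrane protease gene, was -1.84 with all cells and -1.16 without cell 22. These cells share a device, a closed total and unequal gene numbers, and the ranking is a description.

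Marker lists of other cell types were summed in each cell. Mural markers had the highest medians of these lists, 0.298% of reads in high-score cells and 0.206% in low-score cells, beside 0.599% and 0.732% for the epicardial markers. Cardiomyocyte markers held up to 1.55% of reads in high-score cells, the highest in cell 18, and up to 0.126% in low-score cells. Without cell 18 the highest high-score value was 0.0875%. Of 14 such markers, 10 had 5 or more reads in some cell and myh6, nppb and RYR2 were at 0 in all 23. MYL7 and actc1a, cardiac myosin and actin genes, differed by 2.08 and 1.76, and by 1.25 and 0.76 without cell 18. Of 20 macrophage markers 6 had 5 or more reads in any cell, ptprc, marco and lyz were at 0 in all 23, and the summed share was at most 0.0215% in high-score and 0.0225% in low-score cells. It was larger in the high-score cell in 107 of 132 pairs, but the medians were near 0, at 0.000616% in high-score and 0.000167% in low-score cells. Of the 20 markers, 1 had 5 or more reads in at least 6 of the 23 cells. Of 14 endothelial markers 4 had 5 or more reads in any cell, while cdh5, tek and flt1 were at 0 in all 23 and the summed share reached 0.162% in high-score cell 26 and 0.0588% in low-score cells. The endothelial share was larger in the high-score cell in 100 of 132 pairs, with medians of 0.00407% and 0.000287%, and its Spearman correlation with the score was 0.55. That correlation was 0.51 for erythrocyte, 0.49 for mural, 0.39 for macrophage and 0.24 for lymphocyte markers. For thrombocyte, cardiomyocyte and neural or glial markers it was 0.05, 0.04 and -0.07. Of 8 erythrocyte markers 2 had 5 or more reads, with hbaa1, hbaa2 and alas2 at 0 in all 23, and all 7 neutrophil genes were at 0. Of 9 lymphocyte, 12 mural, 8 thrombocyte and 12 neural or glial markers, 2, 9, 3 and 3 had 5 or more reads in any cell. In that order, their highest shares were 0.0656%, 0.437%, 0.000767% and 0.0892% in high-score cells. The highest in low-score cells were 2.65e-05%, 0.367%, 0.0110% and 0.00718%. The lymphocyte and the neural or glial maxima were both in high-score cell 26, which also held the endothelial maximum and had a score of 8.30%. Whether any of this bears on the differences between sides was not tested.

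**Figure D5:**
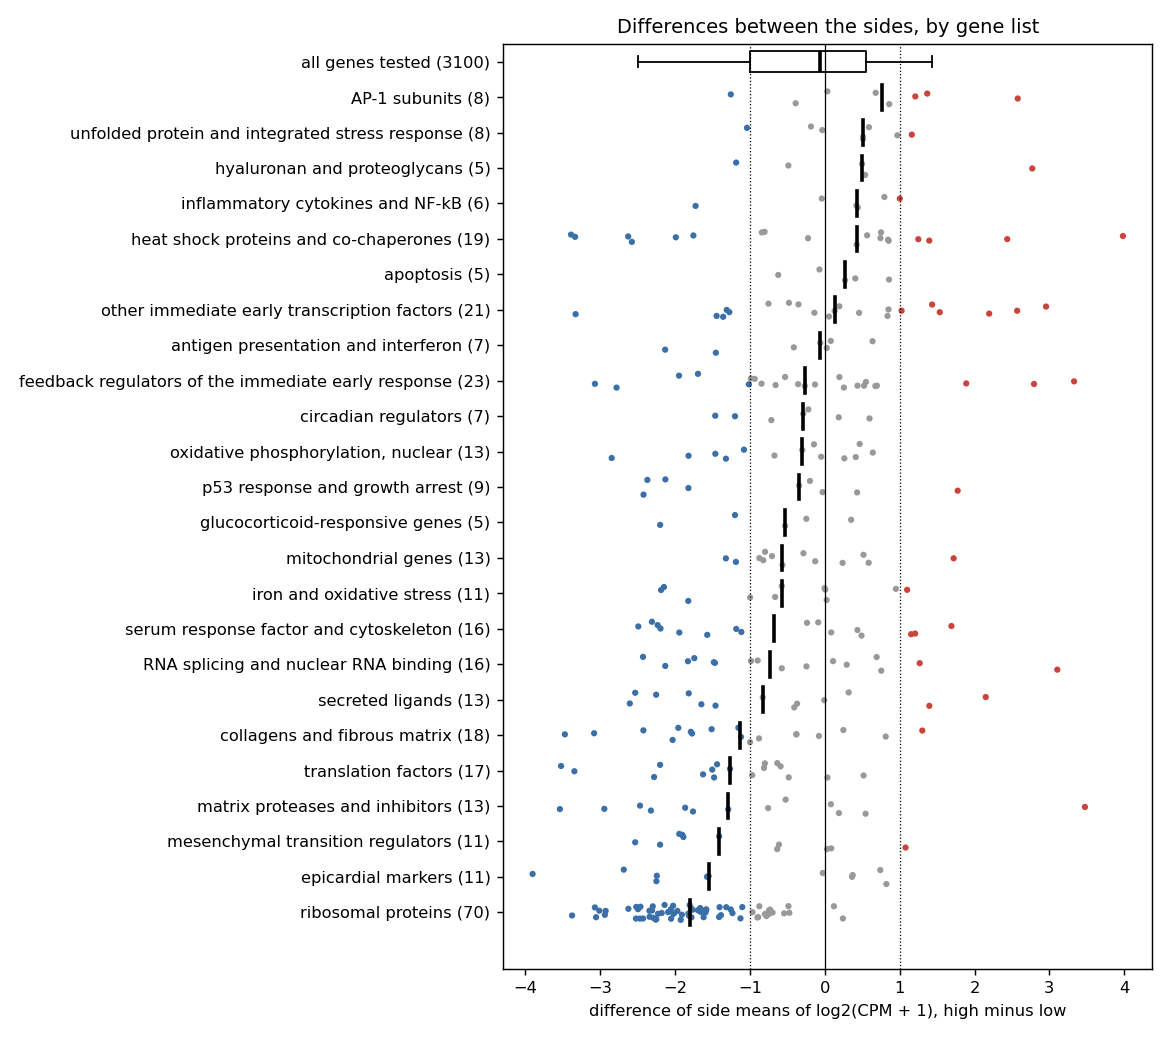
For each gene list with at least 5 members compared (number in brackets), points are members' differences of side means of log2(CPM + 1), high minus low, red at 1 or above, blue at -1 or below and grey between, and the black bar is the list median. The box at the top gives the median, quartiles and 5th to 95th percentiles of the 3100 genes; the AP-1 list has the highest median, 0.77, and the ribosomal protein list the lowest, -1.79.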

How the data were processed

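Values were the authors' expected counts, 1 per gene and cell. Bowtie2, RSEM 1.2.12 and build Zv9 are named per the submitters' processing notes, with roles and settings not given in the sources used here. Symbols came from a supplied name table (21939 of 33737 genes), and 662 of 788 list symbols were found, ignoring case and zebrafish copy letters where needed. Symbols are printed as that table gives them. No molecular identifiers are named, so reads are not independent molecules. Total reads in the series ran from 340293 to 5695770 per cell.

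Computed here with Python 3.11.15, pandas 2.3.3 and numpy 2.4.6: CPM over all genes, the score, the sides, differences of mean log2(CPM + 1) for genes with 5 or more reads in at least 6 cells, and shares of high-low pairs of cells. No doublet caller was run. The steps were tested on simulated counts. Named genes are list members, the 12 genes outside the lists with the largest difference in each direction among those found in at least 12 cells, and the 10 at each end of the correlation with the score. The 50 CPM level was added later. Members, lists and rules were chosen with earlier results of these data known. Promoter motifs and sequences are not analysed here. Alternatives covered scaling, pseudocount, filters, depth, the division and the cells used. 1 list member is not reported here.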

Additional observations from a re-analysis of the deposited data

Results flagged for a closer look

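Reads of FOS, egr1 and JUNB were also high in some of the cells that the comparison did not use, and low in others. In the 15 cells with fewer than 2000 genes the score had a median of 3.46%, from 0.0143% to a highest value of 6.69% in cell 32, and 4 of the 15 lay above the value that divided the 23 cells. Cells 1, 20, 24 and 34, with mitochondrial shares of 25.6% to 47.6%, had scores of 0.0143% to 0.706%. Cell 17, with a mitochondrial share of 23.6%, had a score of 2.52%. Cells 7 and 33, with cardiomyocyte markers at 25.8% and 20.4% of reads, had scores of 0.0156% and 0.0224%. Cell 40, which has the most genes of all, had a score of 2.57%. Cell 11 had a score of 0.433% and macrophage markers at 3.10% of reads. Whether these shares bear on the score was not tested. No control cells were available to set these values against.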

How the results depend on the processing

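With 1 group and no animal named, no result has a test and depth limits genes near 5 reads most. No paired analysis was possible because the cells form 1 group and the sides come from no test. The promoter motifs planned were not run. Over 24 other settings, 6 of them chosen after seeing the data, 40 of 71 named genes past the fold kept their direction in each, and 13 stayed past it; these settings share cells. The AP-1 list (0.13 to 1.23) and the ribosomal protein list (-1.99 to -0.47) kept their direction in 24 of 24, and the other lists followed over settings in 17 to 23. The AP-1 value of 1.23 came with sides made from the other immediate early genes. Those genes include the AP-1 and feedback lists, so that setting is no independent check of either. Median-of-ratios scaling moved the median of all genes to -0.23.

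Genes past the fold upwards and downwards numbered 206 and 324 with genes in at least 12 cells, 676 and 1588 with no filter, 135 and 468 with a pseudocount of 10, 648 and 763 from summed reads, 631 and 836 with the 8 highest against the 8 lowest cells, and 434 and 349 with cells of at least 2500 genes. Under median-of-ratios scaling they were 256 and 856. The heat shock list moved to -0.66 without cells 12 and 29. Leaving out 1 cell at a time gave 314 to 407 genes upwards and 683 to 819 downwards. List medians were then 0.33 to 1.21 (AP-1), -1.53 to -0.86 (collagens), -1.82 to -0.81 (epicardial), -0.12 to 0.63 (heat shock) and -2.09 to -1.39 (ribosomal), and 9 to 20 of the 20 genes most like the score were shared.

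Values past the fold that changed direction follow, and the cause was not tested. Among list medians short of it, feedback regulators reached 0.64 with sides from the other immediate early genes, of which they are a part. Secreted ligands reached 0.025 corrected for genes detected, hyaluronan genes -0.58 at 1500 genes, unfolded protein genes -0.53 at 2500 genes and oxidative phosphorylation 0.40 with JUNB alone. Further lists short of the fold also changed direction and are not all given. With FOS alone, inflammatory genes were at -0.74, apoptosis genes at -0.70 and mitochondrial genes at 0.68. With the 8 highest against the 8 lowest cells, maff was at 0.48. With cells of at least 1500 genes, maff was at 0.11 and hapln1a at -0.58. With at least 2500 genes, the collagens were at 0.51, proteases at 0.47, translation factors at 0.020, klf2a at -2.50, nfkbiab at -1.78, mcl1b at 0.024, HSP90AB1 at 0.24, col1a1a at 0.12, FN1 at 0.35, ANXA2 at -2.88, TMBIM6 at 2.47, krt18b at 0.38 and TOB1 at 0.52. Corrected for genes detected, the epicardial list was at 0.19. By side medians, krt8 was at 0.049. From summed reads, the mesenchymal list was at 0.33, TXNIP at 0.15, ANXA2 at -0.095, B4GALT5 at -0.32, TCF12 at 0.0022 and LRP1 at 1.11. With FOS alone, cardiomyocyte markers were at -0.11, klf2a at -0.49 and actc1a at -0.28. With JUNB alone, the epicardial list and krt94 were both at 0.46, JDP2 at -0.029, maff at 2.28, KLF6 at 0.059, nfkbiaa at 0.72, HSPA8 at 0.33, MYL7 at -0.60, actc1a at -0.34 and CD82 at -0.58. With egr1 alone, maff was at 1.45, hapln1a at -0.70, PCDH19 at -0.29, si:ch73-52p7.1 at -0.97, ANXA2 at -1.24 and B4GALT5 at -0.56. By mean rank, hapln1a was at -0.092, crfb1 at -0.082, PCDH19 at -0.34 and ANXA2 at -1.54. With sides from the other immediate early genes, cardiomyocyte markers were at -0.50, maff at 0.15, twist1a at 0.67, MYL7 at -0.30, actc1a at -0.70, PCDH19 at -0.087, SUSD6 at -0.18 and krt18a.1 at 1.22.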

Other observations

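Mesenchymal transition regulators had 1 of 11 members past the fold upwards and 6 downwards, with a median difference of -1.41 and 8 below 0. Corrected for genes detected, the median was -0.38, with 2 upwards and 3 downwards. The summed share of reads of this list went the other way, with a median of 0.481% in high-score cells and 0.381% in low-score cells. It was larger in the high-score cell in 86 of 132 pairs. Of 13 secreted ligand genes 2 were higher and 6 lower, with 10 below 0 and a median of -0.83, which was 0.025 when corrected. Of 8 genes of the unfolded protein and integrated stress response, 1 was past the fold upwards and 1 downwards, with a median difference of 0.51. Of 9 genes of the p53 response and growth arrest, 1 was higher and 4 lower, with 7 below 0 (median -0.34), of 13 nuclear genes of oxidative phosphorylation 0 and 5 (-0.30), of 16 RNA splicing genes 2 and 6 (-0.73) and of 11 genes for iron handling or oxidative stress 1 and 3 (-0.57). Circadian regulators had 0 of 7 higher and 2 lower, glucocorticoid-responsive genes 0 and 2 of 5, genes of antigen presentation and interferon 0 and 2 of 7, inflammatory genes 1 and 1 of 6, mitochondrial genes 1 and 2 of 13, and apoptosis genes 0 and 0 of 5. Complement and cell cycle lists had 3 members each that could be compared. Of all genes compared, 11% were past the fold upwards and 24.9% downwards. Lower counts such as 2 of 7 circadian regulators and 3 of 11 iron or oxidative stress genes lie near that share.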
